A study of Mus musculus with 15 samples.

Results

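The first transcriptional responses of bone marrow-derived macrophages (BMDMs) to RANKL and to lipopolysaccharide (LPS) were compared directly, in 6 of the 15 samples of the series: 3 samples treated with RANKL for 4 h and 3 treated with LPS for 4 h. The samples were chosen by their labels, with no use of the measured values. The cells came from wild-type C57BL/6 mice and had been cultured with M-CSF, the growth factor that keeps macrophages and their precursors alive, before the stimulus, so every group shared genotype and M-CSF pretreatment. The series text gives 3 days of M-CSF and the culture methods of the study give 4. By the methods both ligands were used at the same mass concentration. The 3 control samples received M-CSF alone and were used to see on which side a difference lay, and the 3 d samples of both stimuli (3 each; 72 h in the methods) were used to see whether it lasted. The labels do not say whether the 3 samples of a group came from separate mice or cultures, so p-values here measure only the spread between these samples. The question behind this design, as the methods state it, was which changes belong to RANKL and not to LPS.

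RANKL is the cytokine that turns macrophage precursors into osteoclasts, the cells that resorb bone. It binds the receptor RANK, which recruits TRAF6 and activates NF-kappaB, MAP kinases and, later, the calcium-dependent factor NFATc1. LPS, a component of the outer membrane of Gram-negative bacteria, binds CD14, MD-2 and TLR4, and signals through the adaptors MyD88 and TRIF to NF-kappaB, MAP kinases and interferon-beta. Both ligands therefore reach NF-kappaB and AP-1 through TRAF6 in the same cell, but with different outcomes, an osteoclast or an inflammatory macrophage.

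The values were FPKM, mapped fragments scaled to transcript length and library size, for 20089 genes, of which 11743 averaged at least 0.1 FPKM over the 15 samples and were tested. The fragments behind the values could be recovered and numbered 19053106 to 20330207 in the 6 samples. The macrophage markers were high in both groups. The FPKM of 8 markers summed to 7254 to 8642 with RANKL and 6046 to 7444 with LPS. Most of these sums was *Lyz2*, with means of 5626 FPKM with RANKL and 4155 with LPS. The defining receptor gene *Csf1r* reached 268 ± 34.9 FPKM with RANKL and 135 ± 19.7 with LPS (SD, n = 3). Of the 8, *Csf1r* was called higher with RANKL, though not when centred, and *Cd14* and *Mertk* were called higher with LPS. The call of *Mertk* (-0.66, limma adjusted p = 0.00933) was lost without RANKL replicate 1 or LPS replicate 3. Neutrophil markers were also present, led by *S100a8* and *S100a9*, with summed levels of 6141 to 18329 with RANKL, 5516 to 18145 with LPS and 6571 to 20455 FPKM in control. None of the 8 neutrophil markers passed the test between the stimuli, and their part in the results was not tested. Markers of B, T and NK, dendritic, mast, stromal, endothelial and erythroid cells summed to at most 243 FPKM per type in any of the 6 samples, and of these only the B cell gene *Cd79b* was called, in RANKL, with overlapping groups. That call was lost when centred (limma adjusted p = 0.188) and without RANKL replicate 1 or 2 or LPS replicate 3 (up to 0.103).

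Differences are given as RANKL minus LPS on the log2(FPKM + 0.1) scale, so that a positive value is a gene higher with RANKL and a negative value a gene higher with LPS, and the scale understates the change of genes near 0.1 FPKM. Calls needed both an adjusted p (Benjamini-Hochberg, limma fit of all 5 groups) under 0.05 and a ratio of more than 1.5 or less than 0.66. A single gene compared by an exact permutation test of 3 against 3 samples cannot go below a two-sided p of 0.1, so all tests rest on the spread pooled across genes and groups.

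Fewer genes were higher with LPS than with RANKL, but by far more. In all, 1054 genes (8.98% of those tested) were higher with LPS and 4818 (41%) were higher with RANKL. The LPS-higher genes held the extremes: 173 of them differed at least 8-fold and 40 at least 32-fold, against 47 and 0 of the RANKL-higher genes. They took 30.6% to 31.7% of all fragments in the LPS samples, 7.37% to 9.18% in the RANKL samples and 8.44% to 10.8% in control. The median gene was 0.53 (log2) higher with RANKL than with LPS. Between LPS and control the median gene moved by -0.52, and between RANKL and control by 0.0016.

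Each count of genes called between the stimuli at 4 h is therefore given on a second scale. There every sample is centred on its median gene. This lowers the RANKL minus LPS difference of every gene by 0.57, a factor of 1.48. On that scale 1905 genes (16.2%) were higher with LPS and 1580 (13.5%) with RANKL, so the LPS share of the called genes moved from 17.9% to 54.7%. The counts of gene lists below are read beside these shares, which before centring were 8.98% for LPS and 41% for RANKL. All 1054 genes called higher with LPS and 1580 of those called higher with RANKL were called on both scales, no gene changed direction, and 5020 genes were called on neither. Centring moves every difference toward LPS, so it could hardly take away an LPS call, and their survival tests little. Whether RANKL-treated cells held more of the median transcript, or LPS-treated cells only gave up their share of the library to induced transcripts, cannot be told apart in FPKM, and in a bulk sample fewer cells of a type cannot be told apart from less RNA per cell.

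**Figure D1:**
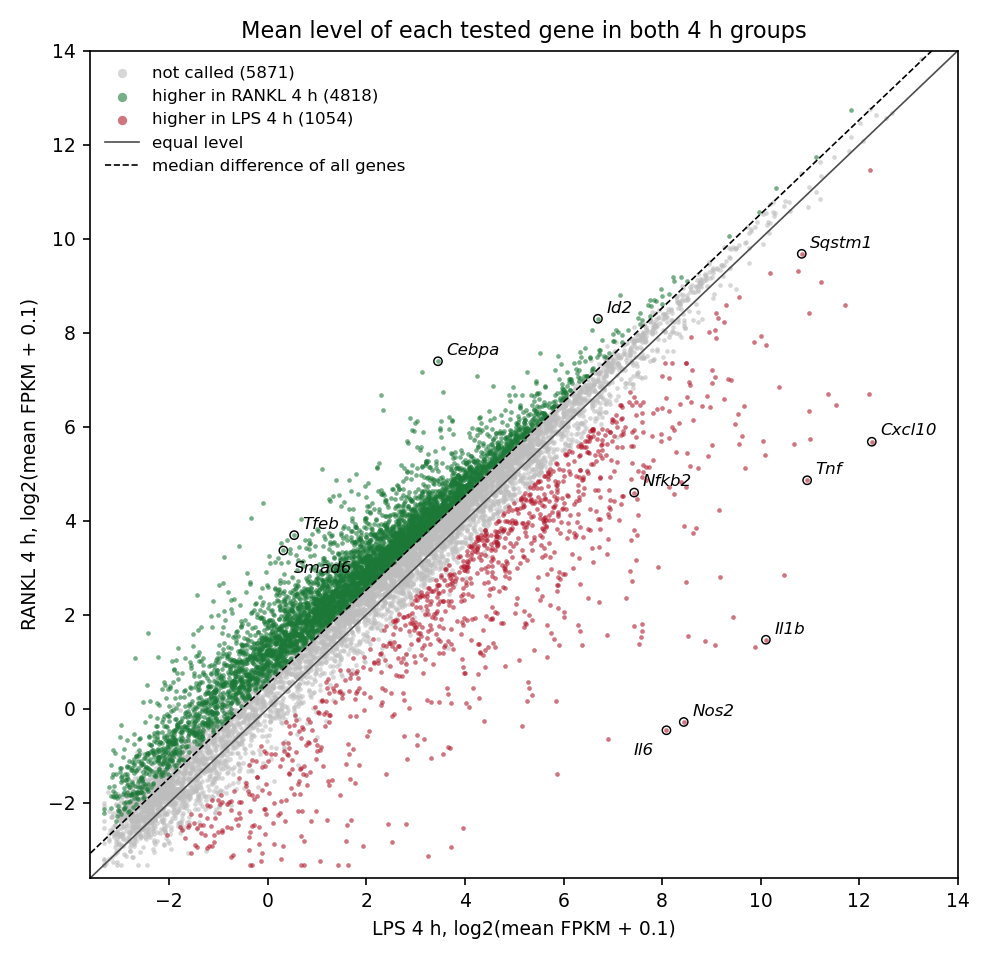
Mean level of each of the 11743 tested genes with LPS for 4 h (horizontal axis) and RANKL for 4 h (vertical axis), both log2(mean FPKM + 0.1) over 3 samples. The LPS-higher genes reach far below the line of equal level (*Nos2*, *Il1b*, *Il6*), while most RANKL-higher genes lie in a narrow band above the dashed line, which marks the median difference of 0.53.

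Set against control, far more genes were called with LPS than with RANKL. LPS raised 990 genes (8.43%) and lowered 4660 (39.7%), or 1871 and 1529 when centred. Differences of single genes between LPS and control are given uncentred, and falls are read beside the -0.52 of the median gene. RANKL raised 13 genes (0.111%) and lowered 1 (0.00852%) by the same test, and 583 genes had an unadjusted p under 0.05. With the replicate number as a block, which pairs the samples, RANKL raised 22 genes and lowered 2. These comparisons share the control samples with each other and the stimulated samples with the direct comparison, so their values are given side by side and not as independent counts.

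The 10 largest differences toward LPS were *Nos2*, *Il1b*, *Il6*, *Cxcl1*, *Il12b*, *Il27*, *Cxcl2*, *Il1a*, *Socs3* and *Tnfsf15*, of which 7 encode secreted interleukins or chemokines. *Nos2*, the inducible nitric oxide synthase, stood at 1.18, 0.5298 and 0.4499 FPKM with RANKL and at 242, 393 and 407 with LPS. The RANKL samples lay within the control range of 1.58, 0.4899 and 0.367, and the difference was -8.79 ± 0.51 (SE; limma adjusted p = 2.29e-08). *Tnfsf15*, a TNF-family ligand, stood at 0.391, 0.259 and 0.186 with RANKL and 50.7, 64.8 and 60.2 with LPS, a difference of -7.304 ± 0.30 (SE; limma adjusted p = 1.09e-09). In all of these 10 genes the RANKL samples were at the control level and the LPS samples far above it, with RANKL minus control between -0.64 and 0.14. None of the 10 was called between RANKL and control.

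Large differences toward RANKL were those of *Sesn1*, *Gpr157*, *Lrrc14b*, *Tmem86a*, *Cd300lb*, *Lpar5*, *Arl11*, *Cebpa* and *Fam83f*. *Cebpa*, a myeloid lineage factor, stood at 72.8, 82.5 and 75.4 FPKM in control, 149.6, 173 and 181 with RANKL and 8.84, 9.28 and 14.4 with LPS. Its difference was 3.97 ± 0.28 (SE; limma adjusted p = 1.20e-07). It was lowest in the LPS samples, with no overlap, and the RANKL samples were above every control sample. LPS lowered it, with LPS minus control at -2.85, whereas RANKL minus control was 1.12 (limma adjusted p = 0.249), which was not called.

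*Sesn1*, a stress-induced inhibitor of mTORC1 signalling, was 23.7 ± 6.62 FPKM (SD, n = 3) in control, 20.7 ± 7.66 with RANKL and 0.832 ± 0.244 with LPS. *Arl11*, a small GTPase, stood at 38.2, 32.0003 and 31.8 with RANKL and 2.21, 1.95 and 1.97 with LPS, with the smallest error of these genes, 3.99 ± 0.13 (SE; limma adjusted p = 1.89e-10). *Cd300lb*, an activating receptor of myeloid cells, stood at 73.003, 85.1 and 88.98 with RANKL and 4.94, 3.69 and 6.295 with LPS. *Lpar5*, a receptor for lysophosphatidic acid, was at most 0.0960 FPKM with LPS, near the pseudocount, against 2.27, 3.26 and 3.34 with RANKL. The RANKL samples of *Sesn1*, *Cd300lb*, *Lpar5* and *Arl11* were at the control level, so for these genes the difference was a fall with LPS, in which all 4 were called below control. The genes named in both directions were called in the same direction when centred. For those toward LPS this was largely set by the direction of the shift.

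Among genes of at least 10 FPKM in both groups, the largest differences toward LPS were *Cxcl10*, *Tnf*, *Ccl3*, *Cxcl3* and *Acod1*, and those toward RANKL were *Cebpa*, *Lhfpl2*, *Mfsd12*, *Tmem37* and *Gnpda1*. *Lhfpl2*, a tetraspan-like membrane protein, stood at 94.1, 92.9 and 132 with RANKL and 12.3, 9.29 and 13.4 with LPS. *Gnpda1*, an enzyme of hexosamine breakdown, stood at 67.5, 78.9 and 75.2 with RANKL and 10.5, 16.2 and 11.2 with LPS. *Tmem37* was 30.7 ± 9.95 in control, 69.8 ± 11.3 with RANKL and 11.3 ± 4.52 with LPS (SD, n = 3), so that the stimuli lay on opposite sides of control. Its rise with RANKL was called only with the replicate block (1.22, limma adjusted p = 0.00645), while its fall with LPS was called without it (-1.45, limma adjusted p = 0.0005696).

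**Figure D2:**
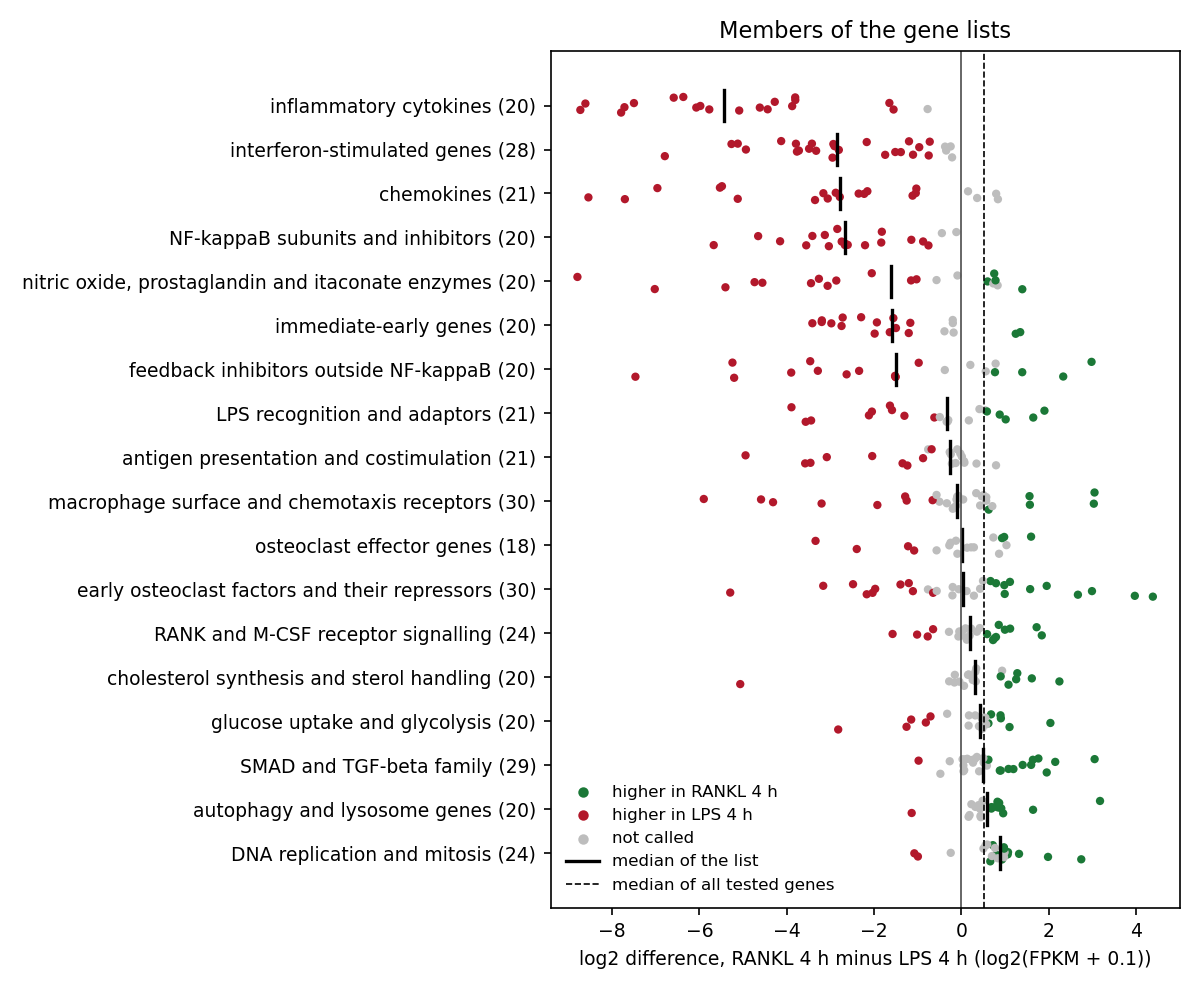
RANKL minus LPS difference (log2) of every tested member of 18 gene lists, one point per gene, with the number of members in brackets, colours for the call and a bar at the median of each list. Cytokines, interferon-stimulated genes, chemokines and NF-kappaB genes have medians left of 0, from -5.43 to -2.66, whereas replication genes have a median of 0.88, against 0.53 (dashed) for all tested genes.

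The letters of NF-kappaB, interferon response, AP-1 and SMAD elements were counted in the promoters of the 100 largest differences in each direction, with no test. Promoter windows came from RefSeq (GRCm38.p6), from 250 bases before to 50 after the transcription start. They were matched by gene identifier, or by symbol where that failed, for 9374 of the tested genes, with 11952 windows. The motifs searched on both strands were GGANTTTCC for NF-kappaB, GAAANNGAA for the interferon response, TGANTCA for AP-1 and GGCGCC for SMADs of the BMP branch, and a window may hold several of them. Among the 100 largest LPS-higher differences, with 90 windows of 75 genes, 14.4% held the NF-kappaB letters, 17.8% the interferon letters and 16.7% the AP-1 letters. In all windows these shares were 1.37%, 7.59% and 5.66%. Among the 100 largest RANKL-higher differences, with 114 windows of 78 genes, they were 0%, 0.877% and 4.39%. The SMAD letters were in 10% of the LPS-higher, 22.8% of the RANKL-higher and 19.9% of all windows. These are counts of letters and not of bound sites.

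Windows of 80 bases are shown for 3 genes, as examples of cytokine and NF-kappaB genes higher with LPS whose windows hold the letters: *Il6* (chr5:30013034-30013113, plus strand, directly before the start), *Csf1* (chr3:107760580-107760659, minus strand, from 190 to 111 bases before the start) and *Nfkbia* (chr12:55492648-55492727, minus strand, directly before the start). Each is written 5′ to 3′ on the strand of its gene, with the match to the NF-kappaB letters, on either strand, in capitals.
Il6: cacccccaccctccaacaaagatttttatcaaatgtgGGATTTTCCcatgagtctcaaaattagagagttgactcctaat
Csf1: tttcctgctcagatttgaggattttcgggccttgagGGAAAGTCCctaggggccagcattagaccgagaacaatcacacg
Nfkbia: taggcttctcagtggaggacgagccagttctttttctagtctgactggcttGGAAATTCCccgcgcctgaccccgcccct

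Of the 20 inflammatory cytokines tested, 19 were higher with LPS and none with RANKL, with a median difference of -5.43 against 0.53 over all genes. When centred all 20 were higher with LPS. *Tnf*, the founding member of the cytokine family to which RANKL belongs, stood at 33.8, 26.4 and 26.6 FPKM with RANKL and 2495, 1698 and 1716 with LPS. Control samples had 23.5, 15.8 and 16.5, so the RANKL samples lay above every control sample, by 0.65 (limma adjusted p = 0.724, not called). The direct difference was -6.07 ± 0.24 (SE; limma adjusted p = 9.78e-10).

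*Il6*, the cytokine of the acute phase whose promoter is shown above, stood at 0.892, 0.384 and 0.606 with RANKL and 262, 276 and 279 with LPS. *Il1b*, the main inflammasome substrate, stood at 4.17, 1.99 and 1.83 with RANKL and 1293, 907 and 1108 with LPS. *Il12b*, the subunit shared by IL-12 and IL-23, stood at 0.89001, 0.602 and 0.118 with RANKL and 101, 124 and 132 with LPS. The LPS samples lay far above every RANKL and control sample in each of them, and RANKL minus control was between -0.47 and 0.14, not called. *Il10*, the anti-inflammatory cytokine, was also higher with LPS and stood at 3.56, 3.502 and 2.04 with RANKL and 226, 184 and 169 with LPS (-5.98 ± 0.33 SE, limma adjusted p = 1.27e-08).

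Transcripts that were all but absent with RANKL gave only lower bounds. Counted against a floor of 3 fragments per library, *Csf3*, the neutrophil growth factor, was at least 244-fold and *Il23a*, the specific subunit of IL-23, at least 145-fold higher with LPS. *Ifnb1*, the interferon through which LPS acts on neighbouring cells, varied between samples, at 4.22, 0.695 and 0.449 with RANKL and 50.5, 21.2 and 12.5 with LPS, without overlap (-4.27 ± 0.73 SE, limma adjusted p = 0.000208). *Csf1*, which encodes M-CSF itself, differed least among the called cytokines, at 14.5, 8.81 and 9.27 with RANKL and 33.9, 27.8 and 32.3 with LPS (-1.55 ± 0.32 SE, limma adjusted p = 0.0009003). *Inhba*, the activin A subunit, was called at -1.65 ± 0.55 (SE; limma adjusted p = 0.0195) but lost its call without RANKL replicate 2 or LPS replicate 3, where the adjusted p reached 0.0803. *Il18*, which is made constitutively as a precursor, was the member not called, at 11.1 ± 3.79 FPKM with RANKL and 18.4 ± 3.48 with LPS (SD, n = 3; limma adjusted p = 0.0875).

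Chemokines divided by gene. Of 21 tested, 17 were higher with LPS and none with RANKL, on both scales, with a median of -2.78. *Cxcl10*, the interferon-inducible ligand of CXCR3, stood at 102, 34.6 and 16.9 FPKM with RANKL, against 114, 24.1 and 11.8 in control, and at 5227, 4885 and 4559 with LPS. *Ccl5*, another T cell attractant, stood at 683, 325 and 156 with RANKL and 3768, 3024 and 3219 with LPS. *Ccl3*, a ligand of CCR1, stood at 112, 122 and 76.1 with RANKL and 5236, 3929 and 4990.1 with LPS. *Cxcl2*, a neutrophil attractant, stood at 10.9, 3.82 and 6.61 with RANKL and 1849, 996 and 1423 with LPS. The groups did not overlap in any of these genes, as in 1353 of the 11743 tested genes on the LPS side. None of them was called between RANKL and control.

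*Ccl2*, the monocyte attractant, was abundant in all groups, at 858, 948 and 619 in control and 509, 568 and 545 with RANKL, and reached 2221, 2601 and 2398 with LPS (-2.15 ± 0.34 SE, limma adjusted p = 0.000107). The RANKL samples of *Cxcl16* lay below all LPS samples and overlapped control, and stood at 111, 87.5 and 66.7 against 76.6, 49.8 and 29.8 in control and 214, 178 and 174 with LPS. The members not called were *Ccl6*, *Cxcl12*, *Cxcl14* and *Pf4*, of which *Pf4*, platelet factor 4, stood at 671, 649.7 and 614 with RANKL and 579, 600.2 and 561 with LPS. *Cxcl14* was called higher with RANKL only with the replicate block (0.796, limma adjusted p = 0.0248). Calls that single libraries decided were those of *Ccl24*, lost without any 1 of the 6 samples (adjusted p up to 0.106) and with the replicate block (0.0516), of *Ccl22*, lost without RANKL replicate 3 or LPS replicate 1, and of *Ccl12*, lost without RANKL replicate 3. *Ccl17* was at least 14.8-fold higher with LPS.

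NF-kappaB is the pathway that both ligands reach, and its own genes were among the most strongly different. Of 20 subunits, inhibitors and regulators, 18 were higher with LPS and none with RANKL, and all 20 were when centred, with a median of -2.66. *Nfkbia*, which encodes the inhibitor IkappaB-alpha, stood at 53.98, 35.6 and 40.6 FPKM in control, 74.7, 65.6 and 60.5 with RANKL and 837, 675 and 635 with LPS. *Tnfaip3*, the ubiquitin-editing enzyme A20 that ends the signal, stood at 20.5, 18.2 and 18.01 in control, 26.2, 28.1 and 30.99 with RANKL and 311, 369 and 323 with LPS. For both genes all 3 RANKL samples were above all control samples, by a log2 of 0.64 (limma adjusted p = 0.578) and 0.58 (limma adjusted p = 0.436), and neither was called. *Nfkbiz*, the atypical inhibitor needed for *Il6* transcription, showed no such step, with 4.53, 3.28 and 5.17 in control, 3.17, 2.92 and 3.73 with RANKL and 184, 197 and 138 with LPS.

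*Nfkb2* was the gene of this list called above control with RANKL. It encodes p100, the precursor of p52 in the noncanonical arm, and stood at 14.8, 11.3 and 9.002 in control, 23.1, 28.4 and 20.8 with RANKL and 196, 171 and 152 with LPS. RANKL raised it by 1.05 ± 0.18 (SE; limma adjusted p = 0.0449), LPS by 3.89 ± 0.18 (SE; limma adjusted p = 3.49e-09), and the direct difference was -2.84 ± 0.18 (SE; limma adjusted p = 4.99e-08). The call for RANKL against control was lost when centred and without any 1 of RANKL replicates 1, 2 and 3 and control replicates 2 and 3. *Relb*, the partner of p52, stood at 8.07, 4.82 and 3.69 in control, 16.9, 15.1 and 9.24 with RANKL and 59.1, 46.7 and 39.4 with LPS. Its rise with RANKL was called only with the replicate block, at 1.33 (limma adjusted p = 0.0367; 0.112 without it). *Rela* and *Nfkb1*, the canonical subunits, differed by -1.15 and -2.65 between RANKL and LPS, higher with LPS, and by 0.22 and 0.13 between RANKL and control, not called. The 2 members not called directly were *Cyld*, a deubiquitinase, at 6.15 ± 0.246 with RANKL and 6.69 ± 0.639 with LPS, and *Ikbkb*, the kinase IKK-beta, which passed on p (0.0103) but not on fold (-0.45).

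**Figure D3:**
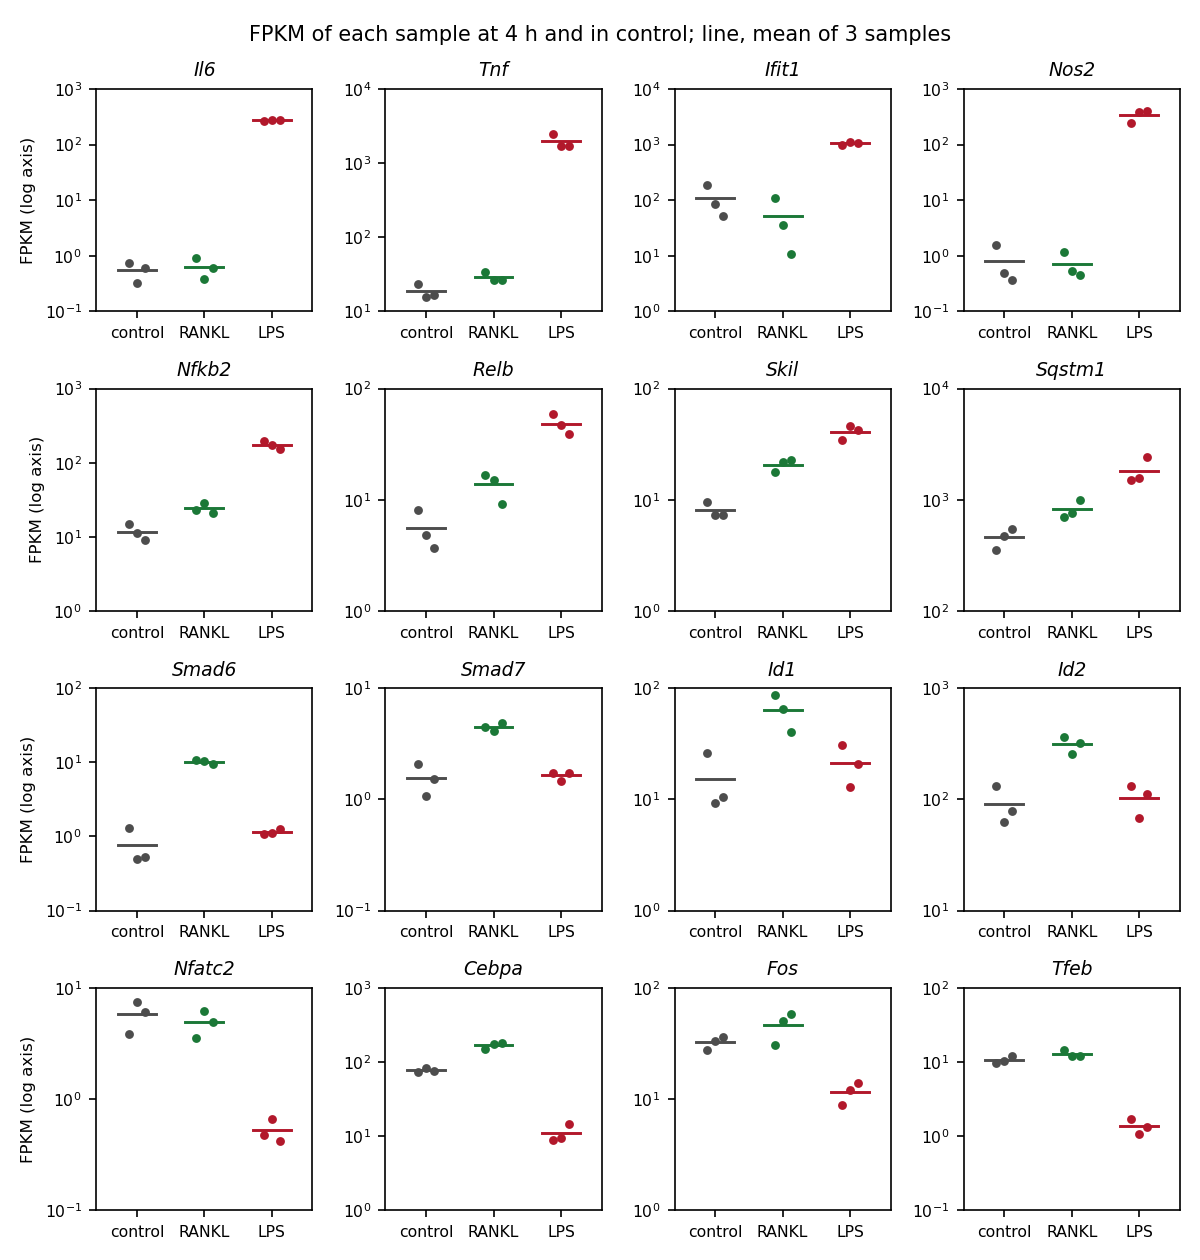
FPKM of each sample in control, with RANKL for 4 h and with LPS for 4 h for 16 genes, on log axes that differ between panels, with a line at the mean of 3 samples. In the top row the LPS samples lie far above both other groups, in the second row the RANKL samples lie between control and LPS, in the third row the RANKL samples are highest, and in the bottom row the LPS samples are lowest.

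Sensors and adaptors of bacterial products were divided. Of 21 genes, 9 were higher with LPS and 5 with RANKL, or 13 and 1 when centred. The RANKL share of 23.8% lay beside 41% of all tested genes, and 4.76% beside 13.5% when centred. *Tlr4*, the LPS receptor itself, was called below control with LPS: it stood at 18.04, 22.9 and 19.8 in control, 13.4, 15.1 and 10.8 with RANKL and 8.26, 8.28 and 10.2 with LPS, and its direct difference passed on p (0.00496) but fell short on fold (0.55). Its coreceptor *Cd14* went the other way, at 42.8, 57.8 and 48.6 with RANKL and 978, 585 and 689 with LPS (-3.89 ± 0.19 SE, limma adjusted p = 5.11e-09). *Myd88*, the adaptor of most Toll-like receptors, stood at 54.5, 48.8 and 39.2 with RANKL and 155, 148 and 136 with LPS. *Ticam2*, the bridging adaptor to TRIF, was not called, at 6.75 ± 0.772 with RANKL and 8.53 ± 0.569 with LPS.

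*Tlr2*, the receptor for bacterial lipoproteins, was stepped, with 20.5, 13.9 and 14.4 in control, 42.97, 39.9 and 24.8 with RANKL and 402, 371 and 369 with LPS, the RANKL samples above every control sample (1.12, limma adjusted p = 0.134, not called). The 5 genes higher with RANKL were *Tlr5*, *Tlr13*, *Ticam1*, *Irak1* and *Irak4*. *Tlr13*, the sensor of bacterial ribosomal RNA, was the one that was called on both scales, at 119, 148 and 161 with RANKL and 33.4, 37.1 and 43.3 with LPS (1.902 ± 0.17 SE, limma adjusted p = 6.58e-07; centred 1.33). *Ticam1*, which encodes TRIF, lost its call without any of 5 of the 6 samples (adjusted p up to 0.173) and with the replicate block (0.0536).

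Feedback inhibitors outside NF-kappaB also divided. Of 20, 12 were higher with LPS and 4 with RANKL, or 13 and 3 when centred. The RANKL count is 20% of the list beside 41% of all tested genes, and 15% beside 13.5% when centred. *Socs3*, the inhibitor of IL-6 family signalling, stood at 3.46, 2.38 and 1.996 FPKM with RANKL and 503, 457 and 442 with LPS (-7.46 ± 0.31 SE, limma adjusted p = 1.33e-09). *Irak3*, the kinase-dead brake on MyD88 signalling, stood at 8.96, 8.9004 and 9.74 with RANKL and 44.3, 40.97 and 57.2 with LPS. *Dusp1*, the phosphatase of p38 and JNK, stood at 26.9, 25.9 and 44.7 with RANKL and 193, 174 and 221 with LPS. *Atf3*, a repressor of inflammatory genes, was high in all and was not called, at 175 ± 14.9 with RANKL and 229 ± 37.95 with LPS, against 122 ± 11.7 in control (SD, n = 3).

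The 4 higher with RANKL were *Dusp6*, *Spry2*, *Rgs2* and *Pdlim2*, of which *Dusp6* and *Spry2* restrain growth factor signalling to ERK. *Dusp6* stood at 42.4, 54.8 and 46.3 in control, 35.96, 43.6 and 29.5 with RANKL and 8.21, 4.25 and 10.02 with LPS (2.33 ± 0.25 SE, limma adjusted p = 3.97e-06). *Rgs2*, a brake on G protein signalling, stood at 39.4, 37.9 and 34.97 with RANKL and 4.002, 4.82 and 5.22 with LPS (2.98 ± 0.26 SE, limma adjusted p = 6.22e-07). Both were at the control level with RANKL and called below it with LPS. *Pdlim2*, a ligase that removes nuclear p65, lost its call when centred (0.202, limma adjusted p = 0.419).

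Interferon-stimulated genes, which cells use against viruses, were mostly higher with LPS. Of 28 tested, 24 were higher with LPS and none with RANKL, or 27 and 0 when centred, with a median of -2.86. The letters of the interferon response element were in 50% of their 30 promoter windows, against 7.59% of all. The windows of *Ifit1* (chr19:34640769-34640848, plus strand, 120 to 41 bases before the start), *Isg15* (chr4:156200841-156200920, minus strand, 102 to 23 bases before) and *Cxcl10* (chr5:92349059-92349138, minus strand, 249 to 170 bases before) are shown as examples of interferon-inducible genes whose windows hold the letters, *Cxcl10* being counted with the chemokines, with the matches in capitals, which can overlap.
Ifit1: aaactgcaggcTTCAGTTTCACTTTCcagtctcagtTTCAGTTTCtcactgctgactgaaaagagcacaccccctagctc
Isg15: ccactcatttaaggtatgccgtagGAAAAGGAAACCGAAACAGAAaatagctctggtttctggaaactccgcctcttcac
Cxcl10: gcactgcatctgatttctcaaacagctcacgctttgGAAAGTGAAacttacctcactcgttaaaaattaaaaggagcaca

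*Ifit1*, which binds foreign RNA, stood at 189.9, 85.3 and 52.1 FPKM in control, 109, 35.3 and 10.5 with RANKL and 991, 1111 and 1063 with LPS (-4.93 ± 0.65 SE, limma adjusted p = 2.62e-05). *Isg15*, a ubiquitin-like modifier, stood at 1043, 488 and 213 in control, 668, 257 and 98.6 with RANKL and 2565, 1729 and 1766 with LPS. *Rsad2*, the antiviral enzyme viperin, stood at 333, 139 and 64.5 in control, 170.5, 51.5 and 20.7 with RANKL and 1560.3, 2013 and 2457 with LPS. The LPS samples were closer to each other than the control and RANKL samples, which spread over a wide range, with replicate 1 highest and replicate 3 lowest in both groups. In each of these genes every RANKL sample was below the control sample of the same number.

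Across the list the RANKL mean was below the control mean for 28 of 28 genes, with a median of -0.84 for RANKL minus control against 0.0016 over all genes, and none of the 28 was called, also with the replicate block. *Gbp5*, a guanylate-binding protein of the inflammasome response, gave the largest difference of the list (-6.79 ± 0.71 SE, limma adjusted p = 3.55e-06), at 13.7, 4.88 and 1.98 with RANKL and 525, 634 and 582 with LPS. *Irf7*, the interferon amplifier, was not called, at 946 ± 316 with RANKL and 1066 ± 214 with LPS (SD, n = 3), and neither were *Irf9*, *Oas1a* and *Oas3*. Calls of *Dhx58* and *Ifi44* depended on single libraries: *Dhx58* lost its call without any of 5 of the 6 samples (adjusted p up to 0.226) and *Ifi44* without any of 4 (0.173). The Ifit, Oas and Gbp families, *H2-K1* and *H2-D1*, and *Sirpb1a* and *Pira2* have near-identical relatives among which the counting could split reads, so their single values are uncertain. *Trim25*, the ligase that activates the RNA sensor RIG-I, was the 1 gene called below control with RANKL, at 74.6, 83.2 and 70.1 in control, 46.5, 50.9 and 44.9 with RANKL and 122, 136 and 148 with LPS, so that the stimuli moved it in opposite directions. Against control it differed by -0.68 ± 0.11 (SE; limma adjusted p = 0.0305) with RANKL and by 0.83 ± 0.11 (SE; limma adjusted p = 2.29e-05) with LPS. The call for RANKL was lost in 8 of the 9 alternatives run on this contrast, all but the replicate block on its own.

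Enzymes of nitric oxide, prostaglandins and itaconate followed the cytokines. Of 20, 12 were higher with LPS and 4 with RANKL, or 14 and 0 when centred. The RANKL count is 20% of the list, below the 41% of all tested genes. *Acod1*, which makes itaconate, stood at 67.9, 17.6 and 12.01 in control, 85.9, 44.5 and 28.9 with RANKL and 1856, 2080.1 and 2178 with LPS (-5.402 ± 0.51 SE, limma adjusted p = 1.33e-06). *Ptgs2*, the inducible cyclooxygenase, stood at 4.15, 1.87 and 2.46 with RANKL and 308, 328 and 462 with LPS (-7.02 ± 0.55 SE, limma adjusted p = 2.98e-07). *Slc7a2*, the arginine transporter that feeds *Nos2*, stood at 2.98, 1.97 and 2.46 with RANKL and 54.7, 57.5 and 67.2 with LPS. Enzymes that supply *Nos2* differed in its direction, with *Gch1*, the first enzyme of tetrahydrobiopterin synthesis, at -2.05 and *Ass1*, which regenerates arginine, at -1.15, though the call of *Ass1* was lost without any of 4 samples (adjusted p up to 0.108).

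*Arg1*, the arginase of alternatively activated macrophages, varied too widely for a call, at 47.6, 35.6 and 8.73 with RANKL and 26.9, 18.6 and 5.201 with LPS. The 4 genes higher with RANKL were *Asl*, *Ptgs1*, *Alox5ap* and *Hmox1*. *Ptgs1*, the constitutive cyclooxygenase, stood at 10.1, 6.68 and 8.34 with RANKL and 4.15, 2.57 and 2.74 with LPS (1.39 ± 0.36 SE, limma adjusted p = 0.00442), opposite in direction to *Ptgs2*. *Hmox1* lost its call without any of 3 samples and *Asl* without either of 2, and none of the 4 was called when centred.

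Among genes of antigen presentation, costimulatory ligands and receptors were higher with LPS, and most peptide-loading genes were not called. Of 21 genes, 9 were higher with LPS and none with RANKL, or 11 and 0 when centred. *Cd40*, the receptor for T cell help, stood at 18.8, 16.3 and 7.83 FPKM with RANKL and 393, 450.3 and 402 with LPS (-4.94 ± 0.44 SE, limma adjusted p = 9.09e-07). *Cd274*, which encodes PD-L1, stood at 68.5, 35.3 and 41.8 with RANKL and 447, 511 and 587 with LPS. *Cd86* stood at 15.7, 11.7 and 5.53 with RANKL and 35.8, 23.3 and 16.2 with LPS, and its call was lost without any of 3 samples (adjusted p up to 0.139). *Icam1*, the adhesion ligand, stood at 47.6, 47.6 and 28.8 with RANKL and 526, 531 and 400.01 with LPS.

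The class II gene *H2-Ab1* stood at 109.8, 57.4 and 17.6 in control, 105, 62.4 and 13.5 with RANKL and 113, 67.3 and 19.4 with LPS. Replicate 1 was highest and replicate 3 lowest in each group, and *H2-Aa*, *H2-Eb1* and *Cd74* had the same order of replicates. *H2-DMa*, a peptide exchange factor, was called higher with RANKL only with the replicate block (0.79, limma adjusted p = 0.0139). Class I genes were not called, *B2m* at 6508 ± 1111 with RANKL and 6465 ± 1183 with LPS (SD, n = 3), and the transporters *Tap1* and *Tap2* were higher with LPS but lost the call without some single samples (adjusted p up to 0.0895 and 0.136).

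Immediate-early genes, which answer within minutes of a stimulus, differed at 4 h. Of 20, 14 were higher with LPS and 2 with RANKL, or 16 and 0 when centred. The RANKL count is 10% of the list, below the 41% of all tested genes. *Egr1* stood at 1.62, 0.779 and 1.11 in control, 1.74, 0.776 and 0.916 with RANKL and 13.05, 11.8 and 12.5 with LPS (-3.41 ± 0.29 SE, limma adjusted p = 6.00e-07). Its relative *Egr2* went the other way, at 1.84, 1.99 and 3.87 with RANKL and 1.28, 0.679 and 0.811 with LPS (1.35 ± 0.37 SE, limma adjusted p = 0.00585; not called when centred). *Ier3*, an NF-kappaB target, stood at 25.5, 14.3 and 12.5 with RANKL and 181, 86.8 and 88.5 with LPS. *Nr4a1*, an orphan nuclear receptor, varied among the LPS samples, at 14.03, 2.197 and 7.298 against 2.02, 1.79 and 1.89 with RANKL, without overlap. *Plk3*, a stress-activated kinase, was the other member higher with RANKL (1.24 ± 0.29 SE, limma adjusted p = 0.0022998) and was not called when centred.

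In the SMAD family several genes were highest with RANKL. SMADs carry the signals of TGF-beta and bone morphogenetic proteins (BMPs) to the nucleus, and *Smad6*, *Smad7* and the Id genes are their classical early targets in many cells. Of 29 genes of this family, 12 were higher with RANKL and 1 with LPS, or 7 and 2 when centred. The RANKL count is 41.4% of the list, near the 41% of all tested genes, and 24.1% against 13.5% when centred, and the median of 0.50 was close to the 0.53 of all genes. *Smad6*, an inhibitory SMAD of the BMP branch, stood at 1.29, 0.501 and 0.533 FPKM in control, 10.9, 10.4 and 9.402 with RANKL and 1.07, 1.103 and 1.26 with LPS. RANKL differed from LPS by 3.05 ± 0.37 (SE; limma adjusted p = 1.31e-05) and from control by 3.67 ± 0.37 (SE; limma adjusted p = 0.00145), the smallest adjusted p of that comparison, while LPS gave 0.62 ± 0.37 (SE; limma adjusted p = 0.165) against control. It was called above control in all 9 alternatives run, including each left-out sample (adjusted p at most 0.0160).

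*Smad7*, the general inhibitory SMAD, stood at 2.08, 1.08 and 1.54 in control, 4.48, 4.13 and 4.89 with RANKL and 1.75, 1.46 and 1.72 with LPS (1.403 ± 0.26 SE, limma adjusted p = 0.000371). *Id1*, an inhibitor of basic helix-loop-helix factors, stood at 26.1, 9.22 and 10.6 in control, 86.9, 64.9 and 40.4 with RANKL and 30.8, 12.8 and 20.7 with LPS. *Id2*, its relative, stood at 133, 63.1 and 79.4 in control, 362, 259 and 322 with RANKL and 131, 67.99 and 112 with LPS (1.64 ± 0.35 SE, limma adjusted p = 0.00114). The RANKL samples of *Smad6*, *Smad7*, *Id1* and *Id2* were above every LPS and every control sample.

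The direct difference of *Id1* (1.597 ± 0.49 SE, limma adjusted p = 0.0122) was not called when centred (1.03, limma adjusted p = 0.124) and was lost without RANKL replicate 1 or LPS replicate 2. The rises of *Id1* and *Id2* over control were called only with the replicate block, at 2.15 (limma adjusted p = 0.0305) and 1.83 (limma adjusted p = 0.0215). *Id3* was raised by both stimuli: it stood at 20.03, 12.8 and 6.03 in control, 81.3, 70.7 and 54.1 with RANKL and 41.5, 36.7 and 31.2 with LPS. Against control RANKL gave 2.54 ± 0.32 (SE; limma adjusted p = 0.00886) and LPS 1.64 ± 0.32 (SE; limma adjusted p = 0.000593). Its direct difference of 0.901 was not called when centred and was lost without any of 4 samples (adjusted p up to 0.0811).

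The exception was *Skil*, which encodes SnoN, a corepressor of SMADs that their signal itself induces. It stood at 9.56, 7.26 and 7.31 in control, 17.7, 21.8 and 22.7 with RANKL and 34.6, 46.4 and 42.2 with LPS, raised by both stimuli and further by LPS (-0.98 ± 0.24 SE, limma adjusted p = 0.00277). Its homologue *Ski* was instead higher with RANKL, at 26.1, 32.3 and 34.9 against 8.03, 7.38 and 8.295 with LPS and 17.3, 21.6 and 23.9 in control (1.95 ± 0.17 SE, limma adjusted p = 7.57e-07). *Smad3*, the signal transducer of TGF-beta, stood at 4.39, 5.35 and 4.94 with RANKL and 1.14, 1.13 and 0.8302 with LPS (2.15 ± 0.15 SE, limma adjusted p = 1.23e-07), and *Tgfbr2*, its receptor, at 29.9, 39.5 and 31.2 with RANKL and 12.7, 18.7 and 12.8 with LPS. *Smad3*, *Ski* and *Tgfbr2* were called below control with LPS and not called with RANKL. The transducers *Smad1*, *Smad2* and *Smad4* were not called, with differences of 0.41, 0.08 and 0.23.

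The GGCGCC letters were in 30.8% of the 26 promoter windows of this list against 19.9% of all. The windows of *Id2* (chr12:25096263-25096342, minus strand, 250 to 171 bases before the start) and *Smad5* (chr13:56702972-56703051, plus strand, directly before the start) are shown as examples of members higher with RANKL that held them, with the letters in capitals.
Id2: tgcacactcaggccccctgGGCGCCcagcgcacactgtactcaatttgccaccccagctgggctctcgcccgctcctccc
Smad5: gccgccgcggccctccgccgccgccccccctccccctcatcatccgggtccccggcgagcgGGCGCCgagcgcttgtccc

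Of the 13 genes called above control with RANKL, 4 were on this list: *Smad6*, *Smad7*, *Id3* and *Skil*. The others were *Enc1*, *Itga5*, *Nfkb2*, *Pdgfa*, *Ppp1r12b*, *Rnf149*, *Sephs2*, *Tgm2* and *Tmeff1*. The list was chosen with earlier results of these data known, so the 4 shared genes are no test of the family. *Enc1*, an actin-binding protein, stood at 4.66, 4.07 and 4.37 in control, 10.8, 12.3 and 11.7 with RANKL and 3.19, 3.47 and 2.86 with LPS (1.84 ± 0.21 SE, limma adjusted p = 8.03e-06), and *Sephs2*, which supplies selenium for selenoproteins, at 32.9, 34.8 and 35.98 in control, 60.7, 59.1 and 55.2 with RANKL and 24.8, 22.5 and 26.7 with LPS (1.24 ± 0.10 SE, limma adjusted p = 4.24e-07). *Pdgfa*, a growth factor for mesenchymal cells, stood at 3.48, 3.63 and 4.49 in control, 11.5, 11.8 and 13.4 with RANKL and 7.23, 6.67 and 4.53 with LPS (1.01 ± 0.25 SE, limma adjusted p = 0.00364; not called when centred). In these genes the RANKL samples were above both other groups without overlap.

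*Tgm2*, transglutaminase 2, was raised by both stimuli, at 235 ± 26.4 FPKM with RANKL and 241 ± 18.7 with LPS against 94.6 ± 24.4 in control (SD, n = 3), with a direct difference of -0.04 ± 0.22 (SE; limma adjusted p = 0.887). It was called higher with LPS when centred (-0.61, limma adjusted p = 0.0394). *Ppp1r12b*, a myosin phosphatase subunit, likewise stood at 6.72 ± 1.38 with RANKL and 6.22 ± 1.02 with LPS against 2.34 ± 0.158. *Itga5*, the fibronectin receptor chain, and *Rnf149* were higher with LPS than with RANKL, with direct differences of -1.25 and -0.68. The count of 13 rested on single libraries: it ranged from 1 to 15 when 1 of the control or RANKL samples was left out, and was 1 without RANKL replicate 2, 2 without RANKL replicate 3, control replicate 2 or control replicate 3, and 6 without RANKL replicate 1. *Smad6* was the gene that all of these held.

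The receptors and kinases through which RANKL and M-CSF act moved both ways. Of 24 genes, 9 were higher with RANKL and 4 with LPS, or 2 and 5 when centred, with a median of 0.21. The RANKL share of 37.5% was near the 41% of all tested genes (8.33% against 13.5% when centred). *Tnfrsf11a*, which encodes RANK, stood at 14.7, 18.2 and 16.7 in control, 13.8, 18.5 and 14.3 with RANKL and 10.6, 15.4 and 14.1 with LPS, not called. *Traf6*, the adaptor of both pathways, stood at 8.43 ± 1.08 with RANKL and 7.69 ± 0.328 with LPS (SD, n = 3). *Csf1r*, the M-CSF receptor, stood at 189.8, 217 and 188 in control, 232, 302 and 270.2 with RANKL and 113, 152 and 138 with LPS (0.997 ± 0.14 SE, limma adjusted p = 4.14e-05), and its centred difference of 0.43 was below the fold threshold.

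*Map3k14*, which encodes NIK, the kinase of the noncanonical NF-kappaB arm, and *Tab1*, a partner of TAK1, were the members higher with RANKL on both scales. *Map3k14* stood at 5.49, 6.73 and 5.35 with RANKL and 1.51, 1.82 and 1.37 with LPS (1.84 ± 0.14 SE, limma adjusted p = 2.31e-07), and *Tab1* at 8.15, 7.42 and 7.45 with RANKL and 2.86, 2.16 and 1.85 with LPS (1.72 ± 0.15 SE, limma adjusted p = 8.07e-07). Both were at the control level with RANKL and called below it with LPS. The members higher with LPS were *Traf2*, *Traf5*, *Tab2* and *Syk*, led by *Traf5* (-1.58 ± 0.19 SE, limma adjusted p = 1.34e-05). *Oscar*, a costimulatory receptor of osteoclasts, was at most 0.184 FPKM in any of these 6 samples.

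Factors that promote or repress osteoclast formation moved both ways. Of 30, 11 were higher with RANKL and 10 with LPS, or 6 and 14 when centred. The RANKL share of 36.7% was near the 41% of all tested genes (20% against 13.5% when centred). *Nfatc1*, the master factor of osteoclasts, stood at 6.24, 7.67 and 9.31 in control, 6.35, 7.78 and 7.63 with RANKL and 3.49, 3.86 and 2.64 with LPS. RANKL did not differ from control by more than replicate spread (-0.08, limma adjusted p = 1.0). With LPS *Nfatc1* was below control (-1.19 ± 0.26 SE, limma adjusted p = 0.00148), beside -0.52 for the median gene. The direct difference of 1.11 ± 0.26 (SE; limma adjusted p = 0.00234) was not called when centred. *Fos*, the AP-1 subunit without which osteoclasts do not form, stood at 27.3, 33.6 and 36.04 in control, 30.4, 50.7 and 58.1 with RANKL and 8.83, 12.2 and 14.1 with LPS (1.95 ± 0.28 SE, limma adjusted p = 4.57e-05; centred 1.39). *Irf8*, a repressor of osteoclast formation, was not called, at 61.1 ± 7.97 with RANKL and 64.6 ± 14.9 with LPS (SD, n = 3).

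The AP-1 subunits differed among themselves. *Fos* and *Jun* were higher with RANKL, *Jun* at 48.6, 58.7 and 69.4 against 22.01, 16.4 and 20.6 with LPS (1.57 ± 0.16 SE, limma adjusted p = 3.22e-06), whereas *Junb* and *Fosl2* were higher with LPS. *Junb* stood at 56.8, 41.99 and 40.3 in control, 76.9, 71.8 and 62.5 with RANKL and 489, 381 and 323 with LPS (-2.48 ± 0.17 SE, limma adjusted p = 8.18e-08), and *Fosl2* at 5.04, 5.73 and 7.08 with RANKL and 32.6, 24.6 and 24.04 with LPS (-2.17 ± 0.27 SE, limma adjusted p = 1.59e-05). The calls of *Fos*, *Jun*, *Junb* and *Fosl2* held on both scales, which for *Junb* and *Fosl2* was largely set by the direction of the shift.

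Of the genes called higher with RANKL on both scales, *Cebpa* is described above, *Bhlhe41* is a circadian repressor and *Nfatc2* a calcium-regulated factor. *Nfatc2* stood at 3.88, 7.39 and 6.04 in control, 3.54, 6.23 and 4.94 with RANKL and 0.477, 0.668 and 0.422 with LPS (2.99 ± 0.34 SE, limma adjusted p = 8.43e-06). *Lhx2*, a homeodomain repressor of osteoclast formation, was near the pseudocount with RANKL (0.122, 0.109 and 0.0138) and reached 5.105, 8.06 and 7.39 with LPS (-5.29 ± 0.39 SE, limma adjusted p = 1.62e-07). *Prdm1*, which encodes Blimp1, a repressor of *Irf8* in osteoclast precursors, stood at 1.47, 1.75 and 1.36 with RANKL and 6.49, 7.07 and 6.06 with LPS (-2.03 ± 0.28 SE, limma adjusted p = 4.13e-05). *Rcan1*, an NFAT target that inhibits calcineurin, was stepped, with 11.6, 10.4 and 10.6 in control, 21.3, 20.98 and 24.2 with RANKL and 65.7, 43.9 and 37.9 with LPS. *Myc* and *Bhlhe40* lost their calls for RANKL without any of 4 samples (adjusted p up to 0.114 and 0.243).

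Few genes of the resorbing osteoclast were higher with RANKL at this time. Of 18 effector genes, 4 were higher with LPS and 3 with RANKL, or 7 and 0 when centred, and none was called between RANKL and control. The RANKL count is 16.7% of the list beside 41% of all tested genes. *Ctsk*, the collagen-degrading cathepsin, stood at 35.02, 15.9 and 23.7 with RANKL and 19.02, 8.98 and 16.8 with LPS, not called. *Dcstamp*, needed for fusion, was at most 0.522 FPKM in the 6 samples, and *Calcr*, the calcitonin receptor, was listed at 0 in the 3 RANKL samples and at most at 0.0358 with LPS. *Src*, the kinase of podosomes, was the member with the largest difference, toward LPS, at 8.92, 5.59 and 3.71 with RANKL and 61.1, 59.6 and 55.3 with LPS (-3.34 ± 0.32 SE, limma adjusted p = 1.70e-06). *Car2*, the carbonic anhydrase that supplies protons for acid secretion, also stood higher with LPS, at 2.598, 1.498 and 1.44 with RANKL and 12.6, 10.96 and 6.78 with LPS, as did *Cd44*. *Acp5* (TRAP), toward LPS, and *Mmp9*, toward RANKL, were called, but each lost the call without any of 5 of the 6 samples (adjusted p up to 0.133 and 0.153). *Ostm1* and *Adam8* were the other members higher with RANKL and were not called when centred. *Atp6v0d2*, a proton pump subunit, was called higher with RANKL only with the replicate block (1.03, limma adjusted p = 0.0458).

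Surface receptors moved both ways. Of 30, 8 were higher with LPS and 5 with RANKL, or 11 and 3 when centred. The RANKL count is 16.7% of the list beside 41% of all tested genes, and 10% beside 13.5% when centred. *Cx3cr1*, the fractalkine receptor of resident macrophages, stood at 1.71, 2.3997 and 2.05 in control, 3.63, 5.59 and 5.37 with RANKL and 0.351, 0.546 and 0.603 with LPS (3.05 ± 0.27 SE, limma adjusted p = 9.08e-07). *Cxcr4*, the CXCL12 receptor that holds cells in marrow, stood at 63.3, 45.7 and 72.8 with RANKL and 9.08, 4.53 and 9.003 with LPS (3.03 ± 0.43 SE, limma adjusted p = 5.25e-05). *Ccr2*, the monocyte receptor for CCL2, stood at 15.2, 17.4 and 11.9 with RANKL and 3.65, 6.44 and 4.94 with LPS, and its call was lost when centred and without RANKL replicate 2 or LPS replicate 1. *C3ar1* was higher with RANKL and lost its call when centred, and *Stab1*, a scavenger receptor, kept it (0.99, limma adjusted p = 0.0403).

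Toward LPS stood the formyl peptide receptors and the lectin *Clec4e*. *Fpr1*, which senses bacterial peptides, stood at 11.3, 7.39 and 7.91 with RANKL and 182, 146 and 201 with LPS (-4.31 ± 0.28 SE, limma adjusted p = 5.95e-08), and *Clec4e*, the mycobacterial sensor Mincle, at 18.1, 14.9 and 11.3 with RANKL and 367, 339 and 346 with LPS (-4.59 ± 0.24 SE, limma adjusted p = 1.10e-08). *Ccrl2*, a chemerin-binding receptor, gave the largest difference of the list (-5.898 ± 0.49 SE, limma adjusted p = 4.34e-07). *Mrc1* and *Cd36*, scavenger receptors, were not called, at 109.8 ± 40.02 and 606 ± 203 with RANKL and 82.5 ± 33.9 and 426 ± 135 with LPS (SD, n = 3).

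Metabolic genes divided within pathways. Of 20 genes of glucose uptake and glycolysis, 6 were higher with RANKL and 5 with LPS, or 1 and 6 when centred. The RANKL share of 30% lay beside 41% of all tested genes, and 5% beside 13.5% when centred. Those higher with LPS were *Slc2a1*, the glucose transporter, *Hk2*, *Pfkfb3*, *Pfkp* and the regulator *Hif1a*, and *Pfkfb3*, which drives phosphofructokinase, gave the largest difference, at 18.6, 17.3 and 24.9 with RANKL and 118, 149.9 and 161 with LPS (-2.82 ± 0.22 SE, limma adjusted p = 2.65e-07). Its relative *Pfkfb4* was the one higher with RANKL on both scales, at 8.25, 7.47 and 9.23 with RANKL and 1.58, 2.02 and 2.29 with LPS (2.04 ± 0.22 SE, limma adjusted p = 3.97e-06). The pair thus differed in opposite directions. *Ldha* was not called, at 439 ± 99.3 with RANKL and 318 ± 71.4 with LPS (SD, n = 3).

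Of 20 sterol genes, 6 were higher with RANKL and 1 with LPS, or 3 and 4 when centred. The RANKL count is 30% of the list beside 41% of all tested genes, and 15% beside 13.5% when centred. *Ch25h*, which makes 25-hydroxycholesterol, stood at 3.403, 2.34 and 1.61 with RANKL and 61.2, 92.8 and 95.5 with LPS (-5.06 ± 0.57 SE, limma adjusted p = 7.13e-06). *Abcg1*, the exporter of cholesterol to HDL, stood at 26.3, 24.8 and 20.8 with RANKL and 5.15, 5.03 and 4.695 with LPS (2.24 ± 0.33 SE, limma adjusted p = 6.84e-05), and with *Lss* and *Dhcr7*, late enzymes of synthesis, made up the 3 that were higher with RANKL when centred. The exporter *Abca1* was not called, with a difference of 0.28.

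Of 24 genes of DNA replication and mitosis, 12 were higher with RANKL and 2 with LPS, but 1 and 2 when centred. The RANKL count is 50% of the list beside 41% of all tested genes, and 4.17% beside 13.5% when centred. With the replicate block 14 were, *Plk1* (0.83, limma adjusted p = 0.04301) and *Cdkn1b* (0.59, limma adjusted p = 0.0449) being added. *Ccnd1*, the cyclin that M-CSF induces for entry into S phase, was the one that held, at 62.2, 84.2 and 59.3 in control, 42.01, 81.7 and 54.7 with RANKL and 8.34, 12.1 and 5.97 with LPS (2.75 ± 0.57 SE, limma adjusted p = 0.000994). The mitotic genes *Mki67* and *Top2a* were not called, with differences of -0.24 and 0.56, and *Mcm5*, a subunit of the replicative helicase, lost its call without any of 4 samples. The 2 higher with LPS were *Ccne1*, a cyclin of S-phase entry, and *Cdkn1a*, the inhibitor p21, at 301 ± 113 with RANKL and 609 ± 125 with LPS (SD, n = 3), whose calls were lost without any of 3 samples and without RANKL replicate 3.

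Of 20 autophagy and lysosome genes, 10 were higher with RANKL and 1 with LPS, or 2 and 1 when centred. The RANKL count is 50% of the list beside 41% of all tested genes, and 10% beside 13.5% when centred. *Tfeb*, the transcription factor that controls lysosomal genes, stood at 9.72, 10.5 and 11.9 in control, 14.4, 12.1 and 11.99 with RANKL and 1.69, 1.06 and 1.31 with LPS (3.17 ± 0.17 SE, limma adjusted p = 1.06e-08; centred 2.61). *Npc1*, the cholesterol transporter of the lysosome, was the second to hold when centred (1.07). *Ctsd* and *Lamp1*, lysosomal proteins, differed by 0.91 and 0.396, against 0.53 for the median gene. *Sqstm1*, the autophagy receptor p62, was stepped, at 357, 473 and 551 in control, 702, 767 and 989 with RANKL and 1507, 1567 and 2403 with LPS (-1.14 ± 0.23 SE, limma adjusted p = 0.000767), and its value with RANKL was not called against control (limma adjusted p = 0.331).

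The set of genes that differed had changed in part by 3 d. At that time 1506 genes (12.8%) were higher with LPS and 2739 (23.3%) with RANKL, and the median gene differed by 0.11. Of the 1054 genes higher with LPS at 4 h, 318 were higher with LPS at 3 d as well (30.2% of the early and 21.1% of the late list), 139 were higher with RANKL and 597 were not called. Of the 4818 higher with RANKL at 4 h, 1148 were so at 3 d (23.8% of the early and 41.9% of the late list), 596 were higher with LPS and 3074 were not called. The 23.8% was near the 23.3% of all tested genes higher with RANKL at 3 d, and the 41.9% near the 41% at 4 h. For LPS the 30.2% stood beside 12.8% of all tested genes, and the 21.1% beside 8.98%. The change of the difference itself was called for 5758 genes (49%), 1805 toward RANKL and 3953 toward LPS, and the general shift of the LPS 4 h samples is part of these counts.

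Of the 19 genes plotted at both times, all but *Il1a* had a difference that changed between the times (limma interaction, adjusted p under 0.05). They were picked for a large 4 h difference, which enters the interaction, so a smaller one at 3 d is partly set by the choice. *Il1b*, *Il6*, *Cxcl1* and *Cxcl2* were higher with LPS at 3 d too, but by less, and *Il6* stood at 0.161 ± 0.0547 FPKM with RANKL and 18.7 ± 12.1 with LPS at 3 d (SD, n = 3), a difference of -5.86 after -8.61 at 4 h. *Il27* and *Il12b* were no longer called (-0.73 and -1.69). *Tnfsf15* was called the other way, at 0.907 ± 0.228 with RANKL and 0.488 ± 0.135 with LPS (0.78, limma adjusted p = 0.0453). *Cebpa* also changed sides, at 33.1 ± 12.8 with RANKL and 102 ± 32.6 with LPS (-1.64, limma adjusted p = 0.000368).

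**Figure D4:**
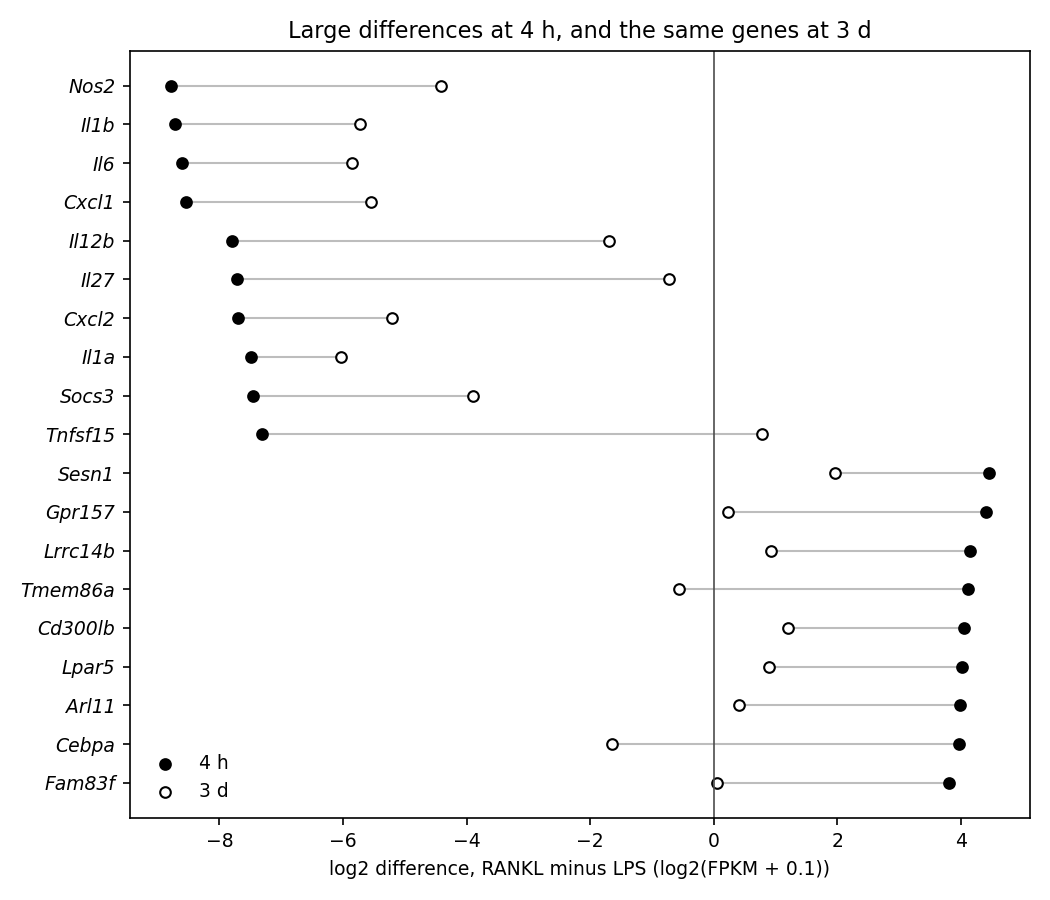
RANKL minus LPS difference (log2) of 19 genes with large differences at 4 h (filled) and of the same genes at 3 d (open), ordered by the 4 h value. All open points lie closer to 0 than the filled ones, and those of *Tnfsf15*, *Tmem86a* and *Cebpa* lie on the other side of 0. The genes were picked for their 4 h difference, so smaller values at 3 d are partly set by the choice.

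Cytokines and chemokines leaned to the LPS side at 3 d too, with 12 of 20 and 14 of 21 called there and none called for RANKL. Called for LPS at both times were 12 cytokines and 11 chemokines, of 19 and 17 at 4 h. Of all tested genes, 12.8% were called for LPS and 23.3% for RANKL at 3 d. NF-kappaB genes lost their one-sided pattern, with 4 of 20 for LPS and 3 for RANKL, the 3 being *Nfkb2* (0.75), *Tnip3* (1.398) and *Traf1* (0.804), all of which were higher with LPS at 4 h. Of 28 interferon-stimulated genes, 7 were higher with LPS and none with RANKL. The SMAD family turned over, with 8 of 29 for LPS and 3 for RANKL, and 5 genes passed from the RANKL to the LPS side: *Smad6* (-1.37, limma adjusted p = 0.00822), *Smad7* (-0.93), *Id1* (-2.69), *Id2* (-1.096) and *Id3* (-0.92).

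Of 18 osteoclast effector genes, 3 were on the RANKL side at 4 h and 12 at 3 d. Only 1 was there at both times, and 1 of the early ones was on the LPS side at 3 d. *Ctsk* reached 1059.8 ± 568 FPKM with RANKL against 88.3 ± 62.1 with LPS at 3 d (SD, n = 3), a difference of 3.69 after 0.73 at 4 h. *Car2*, *Src* and *Acp5*, higher with LPS at 4 h, were higher with RANKL at 3 d (3.53, 1.18 and 2.53). *Nfatc1*, at 1.11 early, reached 2.597. Replication genes went from 12 to 22 of 24 on the RANKL side, with *Mki67* at 4.01, and sterol genes from 6 to 15 of 20. Of these, 11 replication and 4 sterol genes were there at both times. Over all tested genes the RANKL share went from 41% at 4 h to 23.3% at 3 d. When centred, the 4 h counts were 0 effector, 1 replication and 3 sterol genes. The general shift of the LPS 4 h samples is thus part of the starting counts, and the 3 d counts are not centred.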

How the data were processed

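RNA was measured in BMDMs by RNA-seq of total RNA with SMARTER libraries. The deposited FPKM values were made by the authors with StringTie and Ballgown on GRCm38.p4 (mm10), per the submitters' processing notes and the methods. The aligner, annotation and strand setting are not given in the sources used here. The table holds 20089 genes in alphabetical order up to *Ttk*; genes from there on were not analysed here. Groups came from the labels. The members and gene lists were chosen with earlier results of these data known.

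After adding 0.1 and taking log2, genes averaging at least 0.1 FPKM entered limma 3.58.1 in R 4.3.3, with a mean-variance trend, over 15 samples in 5 groups. Calls used the fold thresholds of the authors, 1.5 and 0.66, with an adjusted p under 0.05. FPKM steps gave back whole fragments for 14485 genes (within 0.01 of a whole number for 100% of values), 18306184 to 20330207 per sample, which served for depth and for floors of 3 fragments; floors cover counting error only. On simulated data with 11743 genes for this comparison, 97 of 100 4-fold and 74 of 100 2-fold changes were called, with 8 unchanged genes called. The simulated samples were independent, with no replicate effect and no shift of the median gene. Only 200 genes were changed, all above a set mean level. These rates need not carry over to the data, which differ in each of these points, or to low genes.

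Same-numbered RANKL and LPS samples deviated together from their group means (r = 0.69, 0.67 and 0.55 over 9486 genes). Different numbers gave -0.47 to -0.02, which follows from the same-number values, since deviations within a group cancel. The replicate numbers were therefore taken to pair the samples. The pairing comes from the values, as the labels do not explain the numbers, and the main fit does not use it. Blocked values are given where they change the call of a listed gene. Named genes were the 10 largest called differences in each direction (groups without overlap, higher group at least 1 FPKM, no Gm, LOC or Rik symbols), the 5 largest of genes of at least 10 FPKM in both groups, the first 4 genes of each list, and members that went against their list or stood behind a count of 5 or fewer. Other genes, those called between RANKL and control included, were chosen after their values were seen. Some genes the rule names are not reported here. Alternatives changed the scaling, pseudocount, filter, fit, thresholds and samples. Promoters came from RefSeq (GRCm38.p6).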

Additional observations from a re-analysis of the deposited data

Results flagged for a closer look

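The difference between RANKL and LPS itself changed between 4 h and 3 d for the genes below, which had large 4 h differences, by the limma interaction term with Benjamini-Hochberg adjustment over all genes. The values are the 3 d difference minus the 4 h difference on the log2 scale, and all 3 samples of each group enter. Of the genes higher with LPS at 4 h, the change was 8.08 for *Tnfsf15*, 6.99 for *Il27*, 6.101 for *Il12b*, 4.38 for *Nos2* and 3.56 for *Socs3*. It was 3.003 for *Il1b*, 2.99 for *Cxcl1*, 2.75 for *Il6* and 2.500 for *Cxcl2*. Of the genes higher with RANKL at 4 h, it was -5.62 for *Cebpa*, -4.69 for *Tmem86a*, -4.18 for *Gpr157* and -3.76 for *Fam83f*. It was -3.58 for *Arl11*, -3.22 for *Lrrc14b*, -3.12 for *Lpar5*, -2.85 for *Cd300lb* and -2.49 for *Sesn1*. These genes were picked for a large 4 h difference, so a smaller one at another time is partly set by the choice.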

How the results depend on the processing

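The 1054 genes higher with LPS became 1905 when centred and 1990 with the replicate block and centring together (an alternative chosen after seeing the data). Leaving out single samples gave 968 to 1047. The 4818 higher with RANKL became 1580 and 1642 in the same settings and 2545 at a fold of 2, with 4456 to 4760 when single samples were left out. The replicate block alone gave 1105 and 4957, and the calls it changed among the listed genes are given in the report. In a fit of the 2 stimuli alone it also called *Ctsk* (0.73) and *Arg1* (0.83) higher with RANKL. The 5758 genes whose difference changed between the times stayed within 1.5 times under every alternative run, with 5353 to 5668 when single samples were left out.

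Genes raised by LPS over control (990) became 1871 centred and 1963 with block and centring, and genes lowered (4660) became 1529 and 1588. Without single samples they were 903 to 990 and 4244 to 4728. Genes raised by RANKL (13) became 22 with the replicate block, and ranged from 1 to 15 without single samples, and those lowered (1) became 2 with the block, 0 when centred, 0 with block and centring, and 0 to 1 without single samples. The count at an unadjusted p under 0.05 was 583. Of the 70 named genes that were called, 58 were called in the same direction in every one of the 19 alternatives, and 64 outside those of scaling and fold. No named gene reversed. Many of them were named for a large called difference in the main fit, so this stability is partly set by the choice. A count model on the recovered fragments, planned as an alternative, is left out because the deposited values are FPKM. Depth limits transcripts near 0.1 FPKM, where the pseudocount shrinks differences.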

Other observations

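Outside the gene lists, 6 of the 12 largest remaining differences toward LPS are described here, chosen after their values were seen; the others were *Rnd1*, *Lipg*, *Fpr3*, *Fam26f*, *Ifi205* and *Sdc4*. *Il19*, a cytokine of the IL-10 family, was listed at 0 in 2 of 3 RANKL samples and stood at 7.18, 10.7 and 10.3 FPKM with LPS. *Cd69*, an early activation marker, stood at 4.29, 2.003 and 1.17 with RANKL and 157, 219 and 178 with LPS (-6.33 ± 0.43 SE, limma adjusted p = 7.87e-08). *Ptx3*, a soluble pattern-recognition protein, stood at 0.857, 0.937 and 0.231 with RANKL and 49.5, 38.5 and 18.8 with LPS. *Marcksl1*, an actin regulator, was among the most abundant, at 55.3, 58.1 and 35.2 with RANKL and 1917, 1763 and 1266 with LPS (-5.07 ± 0.37 SE, limma adjusted p = 1.62e-07). *Adora2a*, an adenosine receptor, and *Pde4b*, a cAMP phosphodiesterase, differed by -4.92 and -5.099. In all of these genes the RANKL and LPS samples did not overlap.

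Toward RANKL the largest outside the lists were smaller, and 2 of them are given as examples. *Arhgap19*, a GTPase-activating protein, stood at 57.98, 64.2 and 57.04 in control, 69.4, 79.1 and 70.6 with RANKL and 7.57, 8.73 and 5.63 with LPS (3.32 ± 0.23 SE, limma adjusted p = 1.09e-07). *Rab3il1*, an exchange factor, stood at 35.5, 46.6 and 34.7 in control, 31.9, 36.5 and 26.97 with RANKL and 4.14, 3.88 and 2.03 with LPS. *Arhgap19* was above every control sample with RANKL, and *Rab3il1* was not. All of the genes named here were called in the same direction when samples were centred, which for those toward LPS was largely set by the direction of the shift.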
